A study of Mus musculus with 12 samples.

Results

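Late high alcohol drinkers were compared with low alcohol drinkers, as 3 RNA pools against 3. These are 6 of the 12 arrays of a study of the mouse hypothalamus after drinking from adolescence to adulthood, and they were taken by the group named in their labels. All mice were male ICR mice, an outbred strain also known as CD-1. Each mouse lived alone with 2 drinking tubes, was 3 weeks old at the start, and was given 5% or 10% alcohol in one tube and water in the other. The low and the late high drinkers therefore both had alcohol, and differed in how much they drank of their own choice. The other arrays, used here for reference, came from 3 pools of mice given water alone and from 3 of early high drinkers. No label defines early or late, or gives the intake of a pool. The labels place sacrifice at day 51 and the series' design text gives drinking until day 57.

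Each array carried the RNA of a pool of 1 to 3 mice, and the study describes pools of lighter drinkers as holding more mice than those of heavier drinkers. A pool of fewer mice varies more from mouse to mouse, so pool size and drinking cannot be told apart here. Mice were not assigned to be late high or low drinkers, so the comparison sets apart animals that sorted themselves. The tissue took in a large part of the hypothalamus with its many cell groups, and in such bulk samples fewer cells of a type and less RNA per cell cannot be told apart.

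The hypothalamus is a small region at the base of the brain that controls feeding, drinking, body temperature, stress and reproduction. Its neurons speak through peptides. In the arcuate nucleus, cells that make neuropeptide Y and agouti-related peptide promote feeding, while cells that make proopiomelanocortin and the CART peptide restrain it, and both act on melanocortin receptors. Orexin and melanin-concentrating hormone come from the lateral hypothalamus, vasopressin and oxytocin from the large cells that project to the posterior pituitary. Several of these systems are known to take part in alcohol drinking as well as in feeding.

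The arrays were Agilent 1-colour mouse arrays with probes of 60 bases, labelled with Cy3. A level is given throughout as the log2 intensity of a probe minus the 75th percentile of its array, so that 0 is the brightness of the 75th percentile and 1 unit is a doubling. Before scaling, the 75th percentile lay between 1512 and 1853 over the 12 arrays, no spot was saturated, and 67.0% to 79.3% of the spots of an array were well above background. The array of low pool 2 stood apart. The mean background-corrected signal of its negative control spots was 59.4, against 46.1 on that of low pool 3 and 33.2 to 37.3 on the other 10. Over the probes with values on all 6 arrays, the first principal component held 63.3% of the variance and set low pool 2 apart from the rest. Late pool 3 stood apart from late pools 1 and 2 among the brighter probes. The 12 arrays lay on 3 slides. The late pools were on the slide of early pool 3, low pools 2 and 3 on that of early pools 1 and 2, and low pool 1 on that of the water pools. Low pool 1 and the water pools were scanned on one day and the other arrays on another. No slide held a late and a low pool, so for these 2 groups alone slide and drinking cannot be told apart. Through the early pools a slide term can be fitted over the 12 arrays, and values from that fit are given below beside many of the genes described. The late pools shared their slide with early pool 3 alone, so each of those values rests on that 1 array for the late pools' slide.

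Hypothalamic identity was clear from the peptides. The messages of orexin (Hcrt), oxytocin (Oxt), melanin-concentrating hormone (Pmch) and vasopressin (Avp) lay between 4.70 and 6.05 on each of the 6 arrays, which is far above the 75th percentile.

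Of 32341 probes tested, 7622 (23.6%) differed between late high and low drinkers at an unadjusted p under 0.05 by limma, and these are called below. They comprised 1879 higher (5.81%) and 5743 lower (17.8%) in the late high drinkers. After Benjamini-Hochberg adjustment 430 probes (1.33%) passed, 61 higher (0.189%) and 369 lower (1.14%), with adjusted p-values from 0.0192 upwards. Among the 7622, the median difference was 0.26 for the higher and −0.56 for the lower. A difference beyond 1 on the log2 scale was found for 12 higher and 1450 lower probes, and for 5 and 221 among those well above background on all 6 arrays. Large differences were thus mostly falls. Of 30196 probes with values on all 6 arrays, the groups did not overlap at 24.0%, with the late pools above at 8.56% and below at 15.4%. Read on the brightest probe of each gene, 22.3% of 16803 genes were called, 5.93% higher and 16.4% lower. That share was 9.2% with slide as a term, 14.4% without low pool 2, 19.0% after quantile normalization and 23.7% with the GC trend removed.

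The balance of rises and falls moved with the scaling. Rises made up 24.7% of the called probes as scaled here, 53.3% after quantile normalization, 66.0% after scaling to the median, 75.2% with no scaling and 41.5% with the trend on probe GC content removed. Relative to the values used here, the median of all probes shifted by 0.17 with median scaling and by 0.20 with none. The 5.93% and 16.4% given beside gene lists below hold for the scaling used here. Of the 32341 probes, 7284 were called higher and 2399 lower with no scaling, and 5885 and 3033 with median scaling. The counts were 3785 and 3315 after quantile normalization, 3072 and 4329 with the GC trend removed, and 1351 and 9236 with normexp correction. With slide as a term they were 773 and 2416 of 29517. List counts under an alternative are to be read beside these. Without low pool 2, 4861 probes passed the unadjusted threshold, of which 36.0% were rises, and none passed the adjusted one. With slide as a term, fitted to the 29517 probes with values on all 12 arrays, 3189 passed the unadjusted threshold and 2 the adjusted one, against 6675 and 12 on the same probes without it. For reference, 6.07% of probes were called between early high and low drinkers and 12.2% between late and early high drinkers, with 2 (0.00618%) and 0 past the adjusted threshold. The late high drinkers differed from water mice at 15.7% of probes and the low drinkers from water mice at 9.14%, with 0 and 57 (0.179%) past the adjusted one. These comparisons share arrays with the one described here.

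Some of the large falls were carried by late pools 1 and 2. Vdac1 encodes the main channel of the outer mitochondrial membrane. On its less bright probe (mm9 chr11:52202560-52202619) its level was 3.42, 3.29 and 3.08 in the low pools and 1.09, 0.90 and 2.46 in the late pools. The early pools lay between 2.58 and 2.69 and the water pools between 2.93 and 3.40, so late pools 1 and 2 were far below every other array and late pool 3 was just below them. The difference was −1.78 ± 0.34 (SE, 3 against 3 pools, adjusted p = 0.046), a level 3.44 times as high in the low drinkers. A second probe for Vdac1, brighter on every array, fell by 0.95 with an adjusted p of 0.049. The differences were −1.74 and −0.89 with slide as a term.

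Metrn, which encodes meteorin, a secreted protein of glia and their precursors, followed the same course. Its level on the probe at chr17:25931917-25931976 was 2.30, 2.15 and 2.22 in the low pools and 0.19, 0.28 and 1.92 in the late pools, with early and water pools between 2.07 and 2.41. Late pool 3 was thus close to the other groups while late pools 1 and 2 were about 2 units down. The difference was −1.43 ± 0.37 (adjusted p = 0.074), and on the second probe −0.96. It was −1.31 with slide as a term and no longer passed the unadjusted threshold.

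Npas4, a transcription factor switched on by activity in neurons, fell by 1.27 ± 0.30 (adjusted p = 0.065). It lay at −1.68, −1.54 and −1.69 in the low pools and at −3.38, −3.29 and −2.04 in the late pools. Again late pools 1 and 2 were the low ones, and late pool 3 lay just inside the range of the early pools (−2.07 to −1.58). The difference was −1.36 with slide as a term and just missed the unadjusted threshold. Fosb, also induced by activity, was called lower on dim signal (−0.75). Its difference was −0.14 after quantile normalization, −0.15 with slide as a term, −0.59 without low pool 3 and −0.50 without late pool 2, none of which passed. Of the 19 immediate early genes tested, these 2 were lower and 1 was higher, against 16.4% and 5.93% of all genes, and the median over the list was 0.10. With median scaling 9 were higher and 2 lower, and with no scaling 7 and 2.

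The pattern extended to further genes, chosen here after their values were seen. Over 29517 probes with values on all 12 arrays, late pools 1 and 2 both lay more than 0.5 below all 10 others at 95 probes and above them at 4. By a margin of more than 1 the counts were 23 and 0. The 95 probes stood for 73 named genes on 20 chromosomes and were spread from row 2 to row 518 of the array's 532 rows and over columns 1 to 85 of 85. Of them 89 were called lower and 10 passed the adjusted threshold. These probes were picked by their values, so the counts describe them and test nothing.

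Among the genes with more than 1 such probe, U2af1 encodes the small subunit of the splicing factor that recognises the 3′ splice site. Its brighter probe lay at 2.80, 2.59 and 2.53 in the low pools and 1.21, 1.13 and 2.50 in the late pools, a mean difference of −1.03. Its dimmer probe differed by −0.99. Ppp1r37, a regulatory subunit of protein phosphatase 1, differed by −0.78 and −0.82 on its probes. Probes of the same gene were at odds for Mapk8ip1, a scaffold of the JNK pathway, at −1.19 and −0.01. Cx3cl1, the neuronal chemokine fractalkine, fell by 1.43 on a dim probe (−4.49 in late pool 1) while its far brighter probe differed by 0.14. Thus some genes moved on every probe and others on only some of them, and late pool 3 lay far closer to the other arrays than late pools 1 and 2 did in each of these cases, though for Mapk8ip1, Cx3cl1 and the dimmer Ppp1r37 probe it was the lowest of the rest. Without late pool 3 the differences grew, to −2.27 for Vdac1, −1.99 for Metrn, −1.70 for Npas4 and −1.47 for U2af1.

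**Figure D1:**
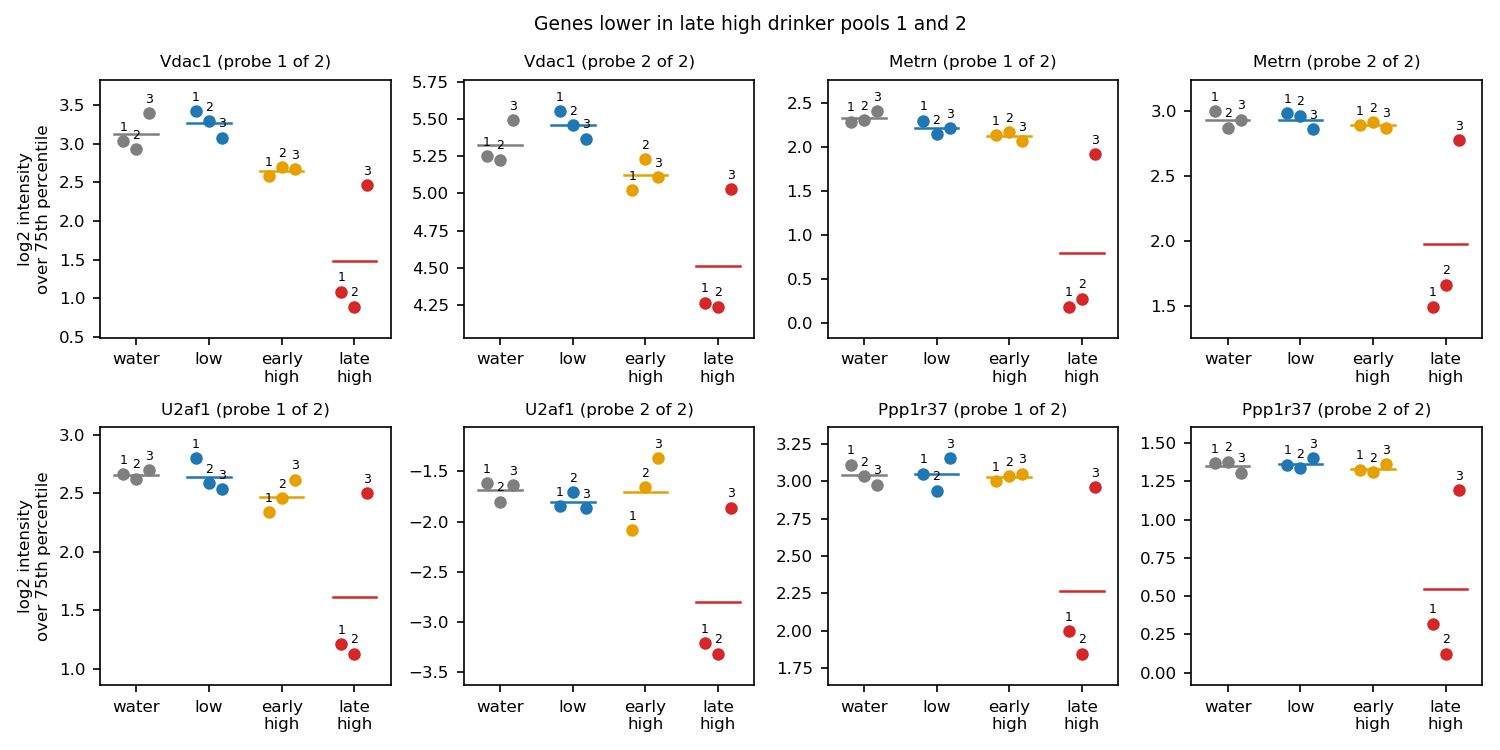
Log2 intensity over the 75th percentile of the array (y axis) of both probes of Vdac1, Metrn, U2af1 and Ppp1r37 in the 4 groups (x axis), with each dot 1 pool, numbered, and each line a group mean. In all 8 panels late pools 1 and 2 lie well below the other 10 arrays, while late pool 3 lies near them; for Vdac1 it is at 2.46 against 1.09 and 0.90.

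Of the 29517 probes, 1521 had all 3 late pools below the 9 other arrays and 801 had them above. The 1521 include 30 of the 95 probes above, and in others the 3 late pools lay close together. One of these genes was Calcrl, the receptor that pairs with RAMP proteins to bind CGRP and adrenomedullin. Its level (chr2:84171069-84171128) was −0.66, −0.65 and −0.56 in the low pools and −1.14, −1.13 and −1.14 in the late pools. Early pools at −0.88 to −0.80 and water pools at −0.79 to −0.74 lay between the groups, so that the late pools were the lowest and the low pools the highest of all. The difference was −0.52 ± 0.05 (adjusted p = 0.020), a ratio of 1.43. On shared slides the late pools lay 0.33 below early pool 3, and early pools 1 and 2 lay 0.25 below low pools 2 and 3. The difference was −0.58 with slide as a term and −0.53 without low pool 2.

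A pair of genes of MHC class II, which presents antigen on microglia, macrophages and other immune cells, were lower in the late high drinkers, and no list of class II genes was counted. The alpha chain gene H2-Aa (chr17:34421285-34421344) lay at −3.93, −4.02 and −3.54 in the low pools and −5.08, −5.56 and −5.09 in the late pools, with no overlap. It fell by 1.42 ± 0.22 (adjusted p = 0.036), and its second probe fell by 1.22 (adjusted p = 0.047). Early and water pools lay between −4.63 and −3.99, so the late pools were below all the rest. When slide was a term the first probe differed by −1.15 and stayed past the unadjusted threshold, and the second differed by −0.89 and did not. After quantile normalization the first differed by −0.93. The partner beta chain gene H2-Ab1, chosen after its values were seen, was lower on 3 probes well above background, by 0.69, 0.92 and 1.00, and differed by −0.45 on another, dim probe. The smallest of these, on the brightest probe, lost its call under quantile normalization (−0.55), under median scaling (−0.51), with no scaling (−0.48), with slide as a term (−0.58), and without low pool 1 (−0.59), low pool 3 (−0.63) or late pool 3 (−0.56). Of 13 microglia markers 1 was called higher and none lower, against 5.93% and 16.4% of all genes. With no scaling 6 were higher, with median scaling 4 and in the fit with slide 3. Cd3e, a chain of the T cell receptor complex, fell by 0.90 ± 0.11 (adjusted p = 0.026) from between −3.55 and −3.35 to between −4.41 and −4.18, and differed by −0.56 after quantile normalization. The water pools, at −4.35 to −3.94, were nearer the late pools than the low ones.

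The 15 probes of lowest p were all lower in the late high drinkers, but 7 of them were not well above background on any late array, where the value is near the floor. Beside Calcrl and Cd3e, 2 more of the 15 were well above background on all 6 arrays. Rrp7a, a ribosome assembly factor, fell by 0.60 (adjusted p = 0.026), and its other probe differed by −0.16. Ralgapa1, a subunit of the RalGAP complex that switches off Ral GTPases, fell by 0.82 (adjusted p = 0.026) on its dimmest probe, while 3 brighter probes of the gene differed by −0.11, 0.16 and 0.14.

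The melanocortin receptor gene Mc3r, whose product binds the proopiomelanocortin peptides in the hypothalamus, was also lowest in the late pools. Its level (chr2:172074725-172074784) was −0.70, −0.70 and −0.82 in the low pools and −1.17, −1.16 and −1.07 in the late pools. The early pools spanned −0.96 to −0.69 and the water pools −0.67 to −0.51. Mc3r fell by 0.39 ± 0.08 (adjusted p = 0.051), and was 1.31 times as high in the low drinkers. The difference was −0.22 with median scaling, −0.19 with no scaling and −0.18 with slide as a term, none past the unadjusted threshold. A far dimmer second probe differed by −0.35.

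Few rises were carried by every probe of a gene. Of 5965 genes with at least 2 probes well above background on all 6 arrays, 153 were called lower on every such probe and 27 higher on every one. Another 159 had probes called in both directions, 1990 had exactly 1 probe called, and 3459 had none. Several genes with rises on each bright probe are given here, chosen after their values were seen. Sdc4, the cell surface proteoglycan syndecan-4, lay at 1.45, 1.34 and 1.50 in the low pools and at 1.84, 1.86 and 1.85 in the late pools (chr2:164251211-164251270). It rose by 0.43 ± 0.08 (adjusted p = 0.046), and by 0.29 on its second probe. Agap1, a regulator of Arf GTPases in endosomal traffic, rose by 0.25 and 0.57, from between 0.10 and 0.18 to between 0.33 and 0.46 on the brighter probe. Cbfa2t3, a transcriptional corepressor, rose by 0.40 and 0.39, and Notch1, a receptor that maintains neural progenitors, by 0.33 on both probes. In the fit with slide the brighter probes differed by 0.26 for Sdc4, 0.24 for Agap1, 0.30 for Cbfa2t3 and 0.40 for Notch1, none past the unadjusted threshold. With the GC trend removed Notch1 differed by 0.08 on its main probe.

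**Figure D2:**
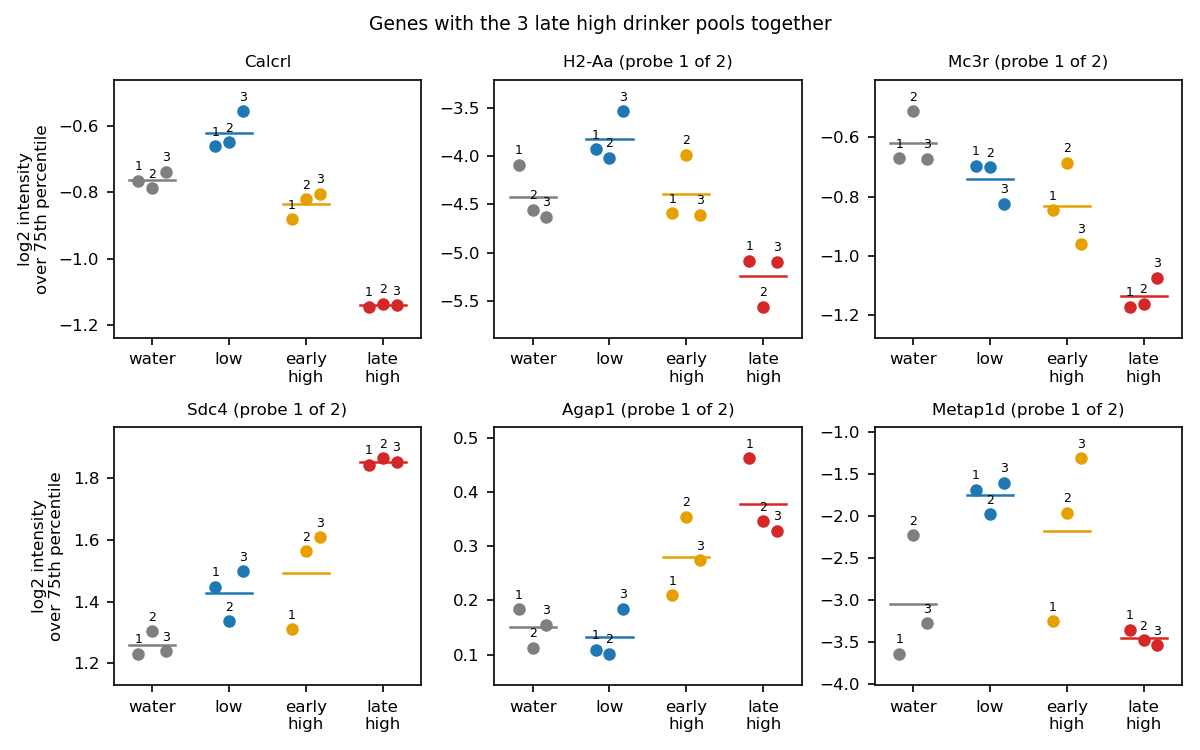
Log2 intensity over the 75th percentile of the array (y axis) for the main probe of Calcrl, H2-Aa, Mc3r, Sdc4, Agap1 and Metap1d in the 4 groups (x axis), with each dot 1 pool, numbered, and each line a group mean. The late pools lie below all other arrays for Calcrl, H2-Aa and Mc3r and above them for Sdc4; for Agap1 early pool 2 reaches the late range, and Metap1d shows a high and a low level within the water and the early pools too.

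Metap1d, a mitochondrial methionine aminopeptidase, showed 2 levels rather than a shift. The low pools lay at −1.69, −1.97 and −1.60 and the late pools at −3.36, −3.48 and −3.54. Early pool 1 (−3.25) and water pools 1 and 3 (−3.64 and −3.28) had the low level as well, while early pools 2 and 3 (−1.96 and −1.31) and water pool 2 (−2.23) had the high one. The second probe gave the same division of the 12 arrays. The difference, −1.71 ± 0.47 (adjusted p = 0.084), therefore equals a gap that also separated pools with the same label. It was −2.97 with slide as a term.

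Among the other largest falls, Rab27a, a GTPase of secretory vesicles, fell by 1.75 (adjusted p = 0.047) on 1 probe and differed by 0.01 on another, and Tssk4, a kinase known from testis, by 1.66 (adjusted p = 0.033). Jade3, a subunit of histone acetyltransferase complexes, fell by 1.62 on its main probe and differed by 0.16 on another. Taok2, a kinase of the MAP kinase pathway, fell by 1.62 on its main probe, but the difference was 0.02 with slide as a term and 0.32 on another probe. F9, the gene of clotting factor IX, fell by 1.52, and by 0.41 with slide as a term, which did not pass. Cd38, an enzyme that consumes NAD, fell by 1.66 (adjusted p = 0.124), and differed by −1.40 without late pool 1, which did not pass, nor did it pass with slide as a term.

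Several of the largest rises came from probes poor in G and C. Of the 12 largest, Ube2d-ps (1.03) was read on a probe of 46.7% GC and differed by 1.14 with the GC trend removed. The array probes below are given by the first 30 of their 60 bases with G and C in capitals, to show how the probes of a gene differ in composition where they differ in result.
Uncx, chr5:140024077-140024136, plus strand, 21.7% GC: GtCtaaGaatatttatatatGtaCCatttt
Uncx, chr5:140020426-140020485, plus strand, 65% GC: aaGGaGaGCCCCGGCtGCaaaCGGaGaCGC
Eif4a1, chr11:69480445-69480504, minus strand, 23.3% GC: ttGtataGtatttattGattCaGGaaaCaa
Eif4a1, chr11:69480600-69480659, minus strand, 45% GC: aaatCtCCaaaaGtGaGtCaaGGGGCtaaa
Ddx3y, chrY:597595-597654, minus strand, 20% GC: ttttGatGtatttaaGatattaGtGaaaaC
Ddx3y, chrY:598215-598274, minus strand, 35% GC: CCttGaaGttCCaattGGatattGttGatt
Axin2, chr11:108811980-108812039, plus strand, 25% GC: ttCtaCtttaGaCtGtaaattatGCattat
Galr3, chr15:78873547-78873606, plus strand, 66.7% GC: GCGCtCatCCtCtGCttCtGGtaCGGCCGC
The sequences are those of the array files and the positions are mm9 as those files give them.

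Uncx, a homeodomain transcription factor, rose by 1.04 ± 0.18 (adjusted p = 0.039) on the probe of 21.7% GC and fell by 0.87 (adjusted p = 0.087) on that of 65% GC. On the first its level was −4.07, −4.27 and −4.44 in the low pools and −2.92, −3.19 and −3.55 in the late pools. On the second it was −2.59, −1.70 and −1.96 against −3.07, −3.13 and −2.66. The groups did not overlap on either probe, and the direction was opposite. Eif4a1, an RNA helicase of translation initiation, rose by 0.99 on the probe of 23.3% GC and differed by 0.12 and −0.15 on 2 others. Ddx3y, a Y-linked RNA helicase, rose by 0.91 on the probe of 20% GC and differed by −0.11 on the brighter one. Axin2, a target and inhibitor of Wnt signaling, lay at −3.58, −3.82 and −3.83 in the low pools and −2.59, −2.76 and −2.82 in the late pools, a rise of 1.02 ± 0.19 (adjusted p = 0.043), on the single probe tested for it.

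Pinx1, a telomerase inhibitor, was among the 12 largest rises on a bright probe of 43.3% GC. It rose from 1.28, 0.97 and 1.26 in the low pools to 2.16, 2.15 and 1.82 in the late pools, by 0.87 ± 0.16 (adjusted p = 0.041), while a dim second probe in another part of the gene differed by 0.02. The early pools, at 1.40 to 1.82, were between the groups. Eif3j1, a translation initiation factor subunit, rose by 0.84 (adjusted p = 0.044) and Cryzl1, a quinone reductase-like protein, by 0.86. The remaining rises among the 12 largest were those of Gng12, Bicdl1, Gpbp1, Tcaf1 and Ube2d-ps, and each of these genes had another probe below 0. Gng12, a G protein subunit, was higher by 1.12 and did not pass without low pool 1 (0.95), late pool 1 (1.01) or late pool 2 (1.02), and Tcaf1 rose by 0.84 but by 0.53 without low pool 3.

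This link with base composition ran through the whole array. Among 26447 probes well above background on all 6 arrays, 15.4% of the 5800 probes of at most 35% GC were called higher and 4.66% lower. The shares were 8.62% and 9.73% between 35% and 40%, 3.39% and 17.4% between 40% and 45%, and 2.38% and 22.7% between 45% and 50%. Of the 4316 probes above 50% GC, 0.811% were called higher and 28.8% lower. Rises thus gave way to falls step by step as GC content increased. With the trend on GC removed from each array, an alternative added after the data were seen, the shares became 8.59% and 8.57% in the lowest bin and 17.8% and 14.7% in the highest. Uncx then differed by 0.71 and −0.62 on its probes, Axin2 by 0.76 and Eif4a1 by 0.69. The source of the trend was not tested.

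**Figure D3:**
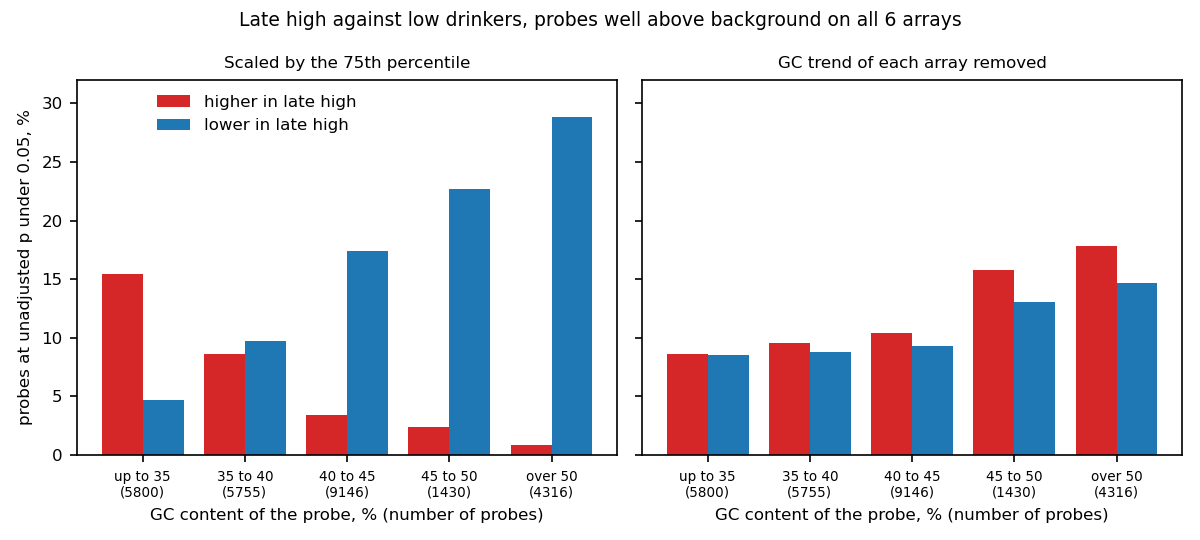
Percent of probes well above background on all 6 arrays that were called higher or lower in late high than in low drinkers at an unadjusted p under 0.05 (y axis), in 5 bins of probe GC content (x axis), with the scaling used here (left) and with the trend on GC removed (right). On the left, higher calls drop from 15.4% to 0.811% and lower calls climb from 4.66% to 28.8%; on the right the lowest bin has 8.59% and 8.57% and the highest 17.8% and 14.7%.

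The best known peptide genes of feeding, arousal and water balance did not pass the test. Of 9 appetite peptides, 5 genes of the orexin and melanin-concentrating hormone systems and 4 of vasopressin and oxytocin, none was called, where 22.3% of all genes were. Npy, which drives feeding, lay at 1.19, 1.11 and 1.22 in the low pools and 1.59, 1.40 and 1.15 in the late pools, a difference of 0.21 ± 0.13. Agrp, made in the same neurons, differed by −0.08 and Cartpt by −0.07. Pomc was at 5.01 in low pool 1 and at 3.47 and 3.49 in the others, against 3.27 to 3.44 in the late pools, so its difference of −0.63 ± 0.34 came largely from a single array. Hcrt differed by 0.05 ± 0.15, Pmch by 0.28 ± 0.15, Avp by 0.21 ± 0.11 and Oxt by 0.25 ± 0.17.

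For some of these the scaling, the slide or the GC trend decided whether they passed. Without scaling the differences were 0.41 for Npy, 0.48 for Pmch, 0.42 for Avp and 0.46 for Oxt, each past the unadjusted threshold, with the median of all probes 0.20 above that used here. In the fit with slide Npy, Pmch, Avp and Oxt were higher in the late high drinkers by 0.55, 0.75, 0.52 and 0.75, also past it. There Pomc differed by 0.066 and did not pass. Cck, cholecystokinin, was lower by 0.79 and passed, having differed by 0.13 without the term. Its level was 3.83 in early pool 3, against 3.24 and 3.15 in early pools 1 and 2. With the GC trend removed Npy (0.35), Avp (0.50) and Oxt (0.55) were higher and passed, the last 2 on probes of 73.3% GC. Npy passed without late pool 3 as well (0.32), Avp without late pool 1 (0.31), and Pomc without low pool 2 (−0.89) or low pool 3 (−0.89). The control genes Actb and Gapdh differed by 0.15 and 0.07 as scaled here and by 0.36 and 0.27 with no scaling, where both passed.

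**Figure D4:**
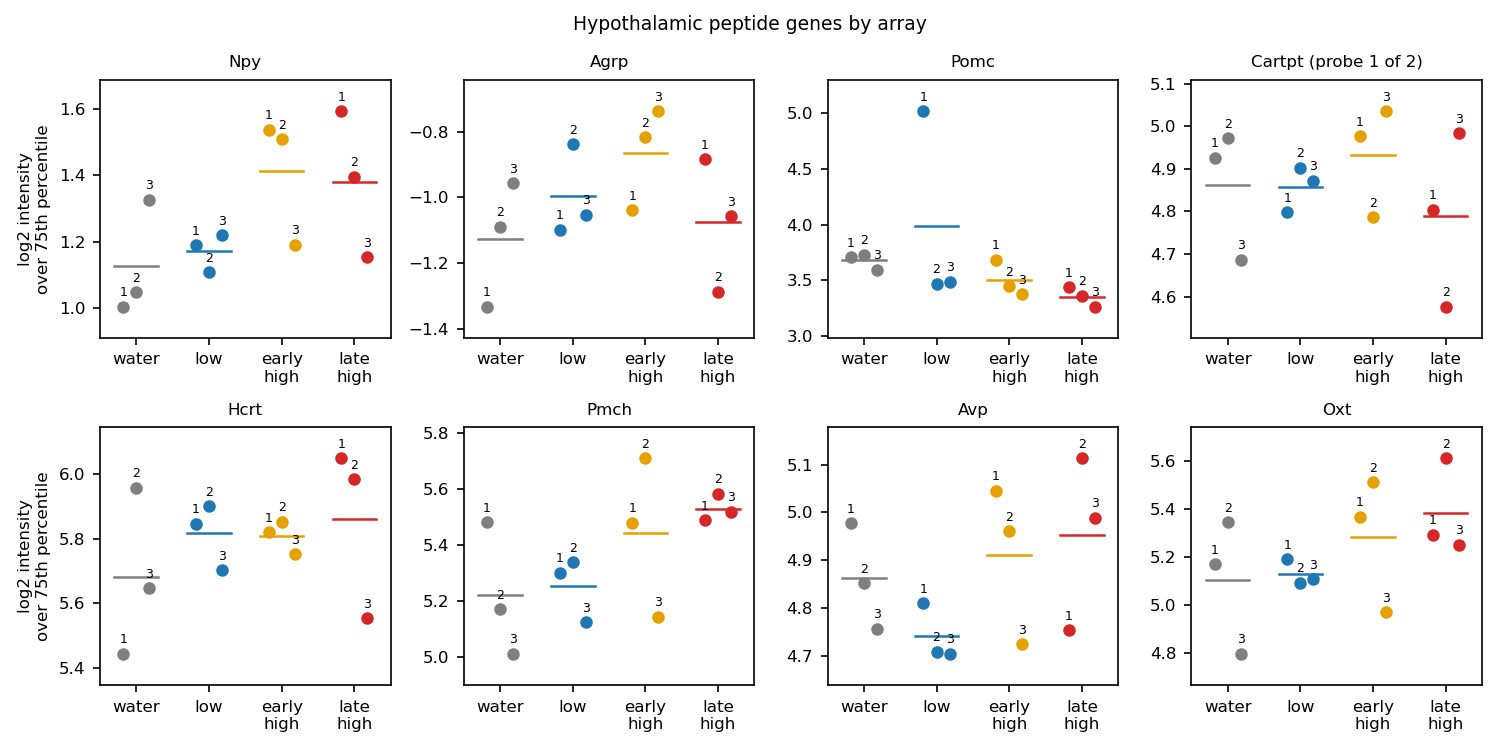
Log2 intensity over the 75th percentile of the array (y axis) for Npy, Agrp, Pomc, Cartpt, Hcrt, Pmch, Avp and Oxt in the 4 groups (x axis), with each dot 1 pool, numbered, and each line a group mean. Late and low pools overlap for Npy, Agrp, Cartpt, Hcrt and Avp; low pool 1 stands alone for Pomc at 5.01, and the 3 late pools sit above the 3 low pools for Pmch and Oxt.

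Among receptors for these peptides, 2 of 15 were lower and none higher, against 16.4% and 5.93% of all genes, Mc3r as above and Galr3, a galanin receptor. With no scaling or median scaling 2 of the list were higher and 1 lower, and with slide as a term none was called. With normexp correction, or without low pool 1, 5 were lower. Galr3 fell by 0.58 ± 0.19 (adjusted p = 0.121), from −2.58, −2.25 and −2.22 in the low pools to −2.93, −2.82 and −3.03 in the late pools. Its probe, shown above, is among those rich in G and C, and the difference was 0.07 with slide as a term and −0.32 with the GC trend removed, neither past the threshold. None of 10 genes of peptide processing and none of 6 opioid genes was called, where 22.3% of all genes were. With no scaling 4 and 2 of them were higher, with median scaling 2 and 2, and in the fit with slide 1 opioid gene was lower.

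In the reproductive axis 2 of 11 genes were lower, a share close to the 16.4% of all genes. With no scaling 2 were higher and none lower, while 5 were lower with normexp correction and 4 without low pool 1. Kiss1, whose peptide drives the neurons of gonadotropin-releasing hormone, differed by −0.43 ± 0.16 (adjusted p = 0.147), and Tacr3, the receptor of neurokinin B, by −0.26. Kiss1 lost its call without low pool 2 (−0.37) or late pool 3 (−0.29), with quantile (−0.30) or median (−0.26) scaling, with no scaling (−0.23), with the GC trend removed (−0.18) and with slide as a term (−0.11). Tacr3 lost it without low pool 1 (−0.21) or late pool 1 (−0.17), with median scaling (−0.09), with no scaling (−0.05) and with slide as a term (−0.15). Gnrh1 itself differed by −0.54 ± 0.29, which did not pass. It passed with slide as a term (−1.36) and without low pool 3 (−0.73), early pool 3 (−0.54) or late pool 1 (−0.75).

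In the stress axis 1 of 12 genes was lower and none higher, and of 23 heat shock and chaperone genes 2 were higher and 2 lower, both beside 16.4% lower and 5.93% higher among all genes. With no scaling 1 and 6 were higher and none lower.

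In the growth and thyroid axis 1 of 11 genes was higher and 4 were lower, against 5.93% and 16.4% of all genes. One of the 4 was not well above background on any of the 6 arrays, and in the fit with slide 1 gene was higher and 1 lower. With no scaling 4 were higher and 2 lower, with median scaling 3 and 3, and after quantile normalization none and 2. Dio3, the enzyme that inactivates thyroid hormone, was 2.14 times as high in the low drinkers (adjusted p = 0.083). It lay at −3.35, −2.09 and −3.18 in the low pools and −4.19, −3.65 and −4.08 in the late pools, and without low pool 2 the log2 difference was −0.71. The water pools, at −3.91 to −3.70, lay with the late pools. Trh, thyrotropin-releasing hormone, was higher by 0.28 ± 0.12 (adjusted p = 0.208). Its call was lost without any one of the pools except early pools 1 and 3 and late pool 3, with values between 0.21 and 0.32, and under quantile normalization (0.27). With slide as a term it was 0.56 and passed. The somatostatin receptor gene Sstr1 differed by −0.55, and by −0.36 without low pool 2. It did not pass with no scaling (−0.34), with slide as a term (−0.30) or after quantile normalization (−0.18). Sst and Ghrh differed by 0.06 and 0.04.

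Of 12 dopamine genes 3 were lower and 1 higher, against 16.4% and 5.93% of all genes. With no scaling 3 were higher and none lower. The 3 lower genes, Ddc, Slc18a2 and Drd2, were lowest in late pool 1. Ddc, the enzyme that makes dopamine and serotonin from their precursors, lay at 3.00, 2.92 and 3.11 in the low pools and 2.41, 2.87 and 2.66 in the late pools, a difference of −0.36 ± 0.14, and −0.59 on a second probe. Slc18a2, the vesicular monoamine transporter, differed by −0.41 and −0.45, with 0.17 in late pool 1 against 0.92 and 0.66 in the other late pools. Drd2, a dopamine receptor, differed by −0.19 and −0.51. Without late pool 1 the first probes of these 3 genes differed by −0.24, −0.20 and −0.14 and did not pass. With no scaling they differed by −0.16, −0.21 and 0.01, and with slide as a term by −0.22, −0.24 and −0.11, again without passing. With the GC trend removed they differed by −0.22, −0.36 and −0.10 and did not pass either. Ddc also lost its call without low pool 3 (−0.31) or late pool 3 (−0.37), Slc18a2 without low pool 1 (−0.35), low pool 3 (−0.43) or late pool 3 (−0.45), and Drd2 without low pool 2 (−0.17). Th, the rate-limiting enzyme of dopamine synthesis, differed by −0.21 and did not pass. The receptor gene Drd5 rose by 0.46 ± 0.13 (adjusted p = 0.083), and by 0.31 without low pool 3, and did not pass with slide as a term (0.39).

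Of 20 GABA genes 4 were lower and 1 higher, and of 16 subunits of ionotropic glutamate receptors 2 were higher and none lower, beside 5.93% higher and 16.4% lower among all genes. With slide as a term 1 GABA gene was lower and none higher, and 1 glutamate receptor subunit was higher and 1 lower. Of the glutamate receptor subunits 5 were higher and none lower with no scaling or median scaling. With normexp correction 1 was higher and 2 lower. Gabre, the epsilon subunit of the GABA-A receptor, fell by 0.59 (adjusted p = 0.059), but differed by −0.07 after quantile normalization. Gabra2, a subunit gene often studied in alcohol dependence, differed by −0.41 on its brightest probe and by 0.19 on another, and Gabrb2 by 0.24 with others at −0.19 and −0.12. Gabra2 did not pass without late pool 2 (−0.37), with median scaling (−0.24), with no scaling (−0.21) or with slide as a term (−0.19), nor Gabrb2 with slide as a term (0.19).

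Of 12 genes of ethanol and acetaldehyde metabolism, 1 was higher and 1 lower, against 5.93% and 16.4% of all genes. With no scaling 3 were higher, with median scaling or the GC trend removed 2, and none was lower there. Without low pool 2 or low pool 3 none was called. Adh5, a class III alcohol dehydrogenase, was higher by 0.26 (adjusted p = 0.168). It did not pass without low pool 2 (0.23), low pool 3 (0.25) or late pool 2 (0.20), and was 0.49 with slide as a term, where it did. Aldh1a1, an aldehyde dehydrogenase of dopamine neurons and retinoid synthesis, was lower by 0.55 ± 0.22 (adjusted p = 0.177), at 1.57 in late pool 1 against 2.42 and 2.27 in the others and 2.47 to 2.79 in the low pools. Without late pool 1 its difference was −0.29, without low pool 2 it was −0.54 and without low pool 3 it was −0.48, none of which passed. It also did not pass with no scaling (−0.35), with the GC trend removed (−0.46) or with slide as a term (−0.68).

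The study itself singled out 13 genes of a pathway named for dilated cardiomyopathy, which share calcium channels, adrenergic signaling, integrins and muscle proteins. The study drew most of that list from these same arrays by comparing all alcohol pools with water pools, which is another contrast than the one here. It added Adrb1 and Prkx for their places in the pathway and tested Jup as an internal control. Its RT-PCR on the same RNA found Adrb1, Gnas, Adcy1, Cacna1d and Itga4 lower and Des and Igf1 higher with alcohol than with water. The direction of the list here is not independent evidence. Of the 13, none was higher and 2 were lower in late high than in low drinkers, against 5.93% and 16.4% of all genes, and with no scaling 4 were higher and 1 lower. Itga4, an integrin chain of leukocytes, lay at −2.76, −1.81 and −2.70 in the low pools and −2.98, −5.07 and −3.71 in the late pools, a difference of −1.50 ± 0.52 (adjusted p = 0.136). It was −0.92 without late pool 2, −1.19 without low pool 2 and −1.83 with slide as a term, none past the threshold. Des, the muscle filament desmin, differed by −0.91 ± 0.38 (adjusted p = 0.190) on dim signal, with low pool 1 (−5.09) inside the late range of −5.12 to −4.98. It was −1.48 with slide as a term and −1.40 without low pool 1, where it passed, and −0.39 without low pool 2, where it did not. Without any other single pool it lay between −0.94 and −0.87 and did not pass. Adrb1, Gnas, Adcy1, Cacna1d, Adcy3, Prkx, Cacnb4, Igf1, Sgcd, Tnni3 and Jup differed by −0.40 to 0.22 on their main probes, none past the threshold. On other probes some of these genes were lower. Gnas, the stimulatory G protein alpha subunit, differed by −0.08 on its brightest probe but fell by 0.75 (adjusted p = 0.069) on another (chr2:174158317-174158376), where late pools 1, 2 and 3 lay at −0.94, −0.96 and −0.22 and the low pools at 0.04, 0.09 and −0.00091. On the remaining 4 probes it differed by −0.86 to 0.06. Other probes of Adrb1, Adcy1 and Cacna1d differed by as much as −0.59, −0.78 and −0.54. Sgcd and Jup passed without low pool 1, at −0.90 and −0.64, as did Prkx at −0.21, and Adcy1 passed without low pool 3 at 0.37. In the fit with slide Jup passed at −0.52, the only one of these 11 to do so.

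In cAMP signaling 2 of 25 genes were higher and 2 lower, against 5.93% and 16.4% of all genes. No gene of the list was lower with no scaling (10 higher) or with median scaling (6 higher), and with the GC trend removed 4 were higher and 1 lower. Prkar2a, a regulatory subunit of protein kinase A, fell by 0.42, with −0.24 under median scaling and −0.21 with no scaling, neither past the threshold. The phosphodiesterase gene Pde10a rose by 0.26, and by 0.19 with slide as a term, where it did not pass. Among 20 clock genes Per3 fell by 0.39 (adjusted p = 0.087, with the call lost with no scaling or with slide as a term) and Cry2 was higher by 0.17, with another Cry2 probe at −0.63. Cry2 did not pass without low pool 1 (0.18), low pool 2 (0.18), low pool 3 (0.16), late pool 1 (0.16) or late pool 2 (0.14). The clock list thus had 1 higher and 1 lower gene, and of 16 inflammatory genes 1 was higher and 2 were lower, against 5.93% and 16.4% of all genes. The inflammatory counts were 6 and 1 with no scaling and 1 and 6 after normexp correction. The larger of the inflammatory falls was that of Il1b, interleukin-1 beta, at −1.47 (adjusted p = 0.046), which was not well above background on any of the 6 arrays and differed by −0.09 after quantile normalization.

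Of 82 cytosolic ribosomal protein genes 10 were higher and 11 lower, and of 81 genes of oxidative phosphorylation 8 were higher and 5 lower, against 5.93% and 16.4% of all genes. Of the 5, Cox8c was not well above background on any of the 6 arrays. Both lists had a median near 0 (0.02 and 0.00). Rpl6 rose by 0.29 (0.07 on another probe) and Rpl31 fell by 0.28 (−0.17 on another), the latter with −0.11 under median scaling. With the GC trend removed the counts became 30 higher and 2 lower for ribosomal proteins, and 27 and 2 for oxidative phosphorylation. With no scaling they were 43 and 0, and 40 and 1. Among all 32341 probes 3072 were higher and 4329 lower with the GC trend removed, and 7284 and 2399 with no scaling.

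**Figure D5:**
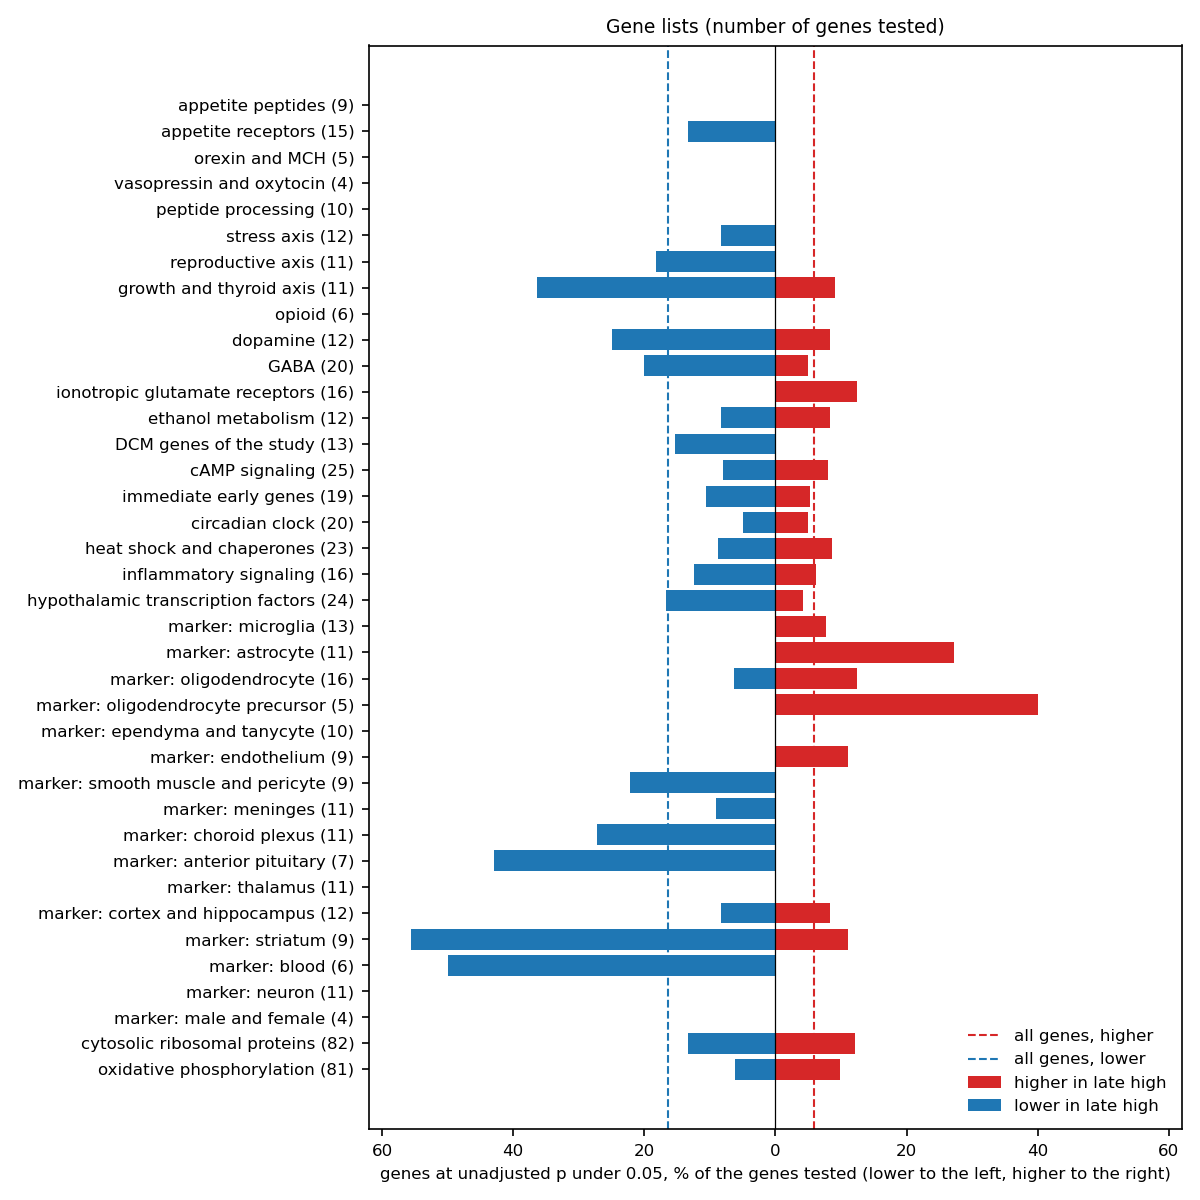
Percent of the genes of each list called higher or lower in late high than in low drinkers at an unadjusted p under 0.05 (x axis), one row per list (y axis), with dashed lines at the share of all 16803 genes, 5.93% higher and 16.4% lower. The lists of hypothalamic peptides, of neurons and of ependyma have no called gene; anterior pituitary (3 of 7), blood (3 of 6) and striatum (5 of 9) have the highest shares called lower.

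None of 11 neuronal and none of 10 ependymal and tanycyte markers was called, with medians of 0.02 and −0.05, and the summed linear level of the neuronal markers was 205 to 215 in the low and 208 to 213 in the late pools. With no scaling 5 neuronal markers and 1 ependymal one were higher, with median scaling 4 and 0, and with the GC trend removed 4 and 1. Of 11 astrocyte markers 3 were called higher and none lower, against 5.93% and 16.4% of all genes, namely the glutamate transporter gene Slc1a3 (0.20), the gap junction gene Gja1 (0.23) and the growth factor receptor gene Fgfr3 (0.23), and the summed level was 154 to 167 in the low and 166 to 177 in the late pools. Without low pool 2, Slc1a3 (0.17) and Gja1 (0.16) did not pass, and other probes for Slc1a3 and Fgfr3 differed by −0.04, −0.18 and −0.75. Fgfr3 did not pass without low pool 1 or late pool 1 (0.20 each), nor Gja1 without low pool 3 (0.24), late pool 1 (0.19) or late pool 2 (0.17). With slide as a term Slc1a3 (0.26), Gja1 (0.32) and Fgfr3 (0.08) did not pass. With no scaling, and also with median scaling, 8 of the 11 astrocyte markers were higher and none lower, where most called probes were rises. Of 16 oligodendrocyte markers 2 were higher and 1 lower, and of 5 markers of oligodendrocyte precursors 2 were higher, against 5.93% and 16.4% of all genes. With no scaling 5 and 5 were higher and none lower.

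Of 24 hypothalamic transcription factors 1 was higher and 4 were lower, the latter a share close to the 16.4% of all genes. In the fit with slide, which could not be made for Lmx1a, one of the 4, 1 was higher and none lower, and with no scaling 6 were higher and 2 lower. Nr5a1, the factor of the ventromedial nucleus, differed by −0.84 (adjusted p = 0.131), and by −0.48 without low pool 2 and −0.57 with slide as a term, where it did not pass. Lhx8, known from cholinergic and preoptic neurons, differed by −0.64, and without low pool 1 (−0.43) or late pool 1 (−0.52) it did not pass, nor with no scaling (−0.43) or slide as a term (−0.42).

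Some markers of neighbouring tissue differed between the groups. Of 7 anterior pituitary markers 3 were lower, against 16.4% of all genes, namely Gh (−2.46), Lhb (−0.64) and Fshb (−1.21). After quantile normalization 1 marker of the list was lower, and these 3 genes differed by −1.83, −0.60 and −0.72. Gh lay at −0.93 in low pool 1, at −4.14 and −5.01 in the other low pools and at −6.15 to −5.24 in the late pools. The summed level of the list was 7.28 to 9.78 in the low pools, 4.09 to 7.01 in the late pools, and 0.987 to 12.8 over the early and water pools, so that pools of one label differed among themselves as much. This linear sum gives most weight to bright members. Cga, which was not called, lay at 2.59 to 2.79 in the low and 1.79 to 2.52 in the late pools, against −0.93 for Gh in low pool 1. Low pool 1 was thus high in both Gh and Pomc. Without low pool 1 the difference of Gh was −1.24 and did not pass, nor did it without late pool 2 (−2.29) or late pool 3 (−2.34), and Fshb did not pass without low pool 2 (−0.93) or late pool 3 (−0.97). The fit with slide leaves out Gh and Prl, which had no value on a water array, and called none of the other pituitary markers. Pomc is itself a pituitary gene, and the part of pituitary tissue in its values was not tested.

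Among blood markers, S100a9 and S100a8, the calprotectin subunits of neutrophils, and Hba-a1, alpha globin, made up 3 of 6 called lower, against 16.4% of all genes, at −1.29, −0.90 and −0.54. S100a9 (chr3:90496585-90496644) lay at −2.28, −1.62 and −1.52 in the low pools and −3.15, −3.54 and −2.61 in the late pools (SE 0.26, adjusted p = 0.049), and with slide as a term the difference was −1.25. S100a8 was −0.36 after quantile normalization, which did not pass, and Hba-a1 was −0.37 without low pool 3 and −0.36 without late pool 2, which did not pass either. The summed level of the 6 markers was 104 to 159 in the low pools, 84.1 to 111 in the late pools and 114 to 156 in the others. Whether blood in the tissue had a part in the falls of the immune genes H2-Aa, Cd3e and Itga4 was not tested.

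Of 9 striatal markers 5 were lower and 1 higher, against 16.4% and 5.93% of all genes, and their summed level was 36.9 to 39.2 in the low and 34.7 to 35.6 in the late pools. In the fit with slide none was higher and 1 lower, and with no scaling 1 was higher and 2 lower. Adora2a, an adenosine receptor, fell by 0.43 (adjusted p = 0.089) from between 0.70 and 0.78 to between 0.25 and 0.36, and differed by −0.05 with slide as a term. Early pool 3, on the slide of the late pools, was at 0.41, against 0.85 and 0.70 in early pools 1 and 2. Ppp1r1b, the dopamine signaling protein DARPP-32, differed by −0.77, and by −0.45 without low pool 2. Of 11 choroid plexus markers 3 were lower, against 16.4% of all genes, but none with no scaling or with median scaling and 1 after quantile normalization, with a summed level of 13.3 to 16.1 in the low and 12.2 to 13.6 in the late pools. Of 11 markers of the meninges 1 was lower and none higher, and all lay below 0 with a median of −0.36, with a summed level of 9.31 to 13.8 in the low, 8.74 to 11.5 in the late and 8.59 to 16.3 in the other pools. Without low pool 2, 4 of the meninges markers were lower with a median of −0.61, and with the 6 arrays alone 3. None was called with no scaling, median or quantile scaling, the GC trend removed or slide as a term. None of 11 thalamic markers was called, with a median of 0.09. With slide as a term 7 of them were called lower and the median was −0.92, where 2416 of 29517 probes were lower. For the late pools' slide that fit rests on early pool 3 alone. Of 12 markers of cortex and hippocampus 1 was higher and 1 lower, of 9 endothelial markers 1 was higher, and of 9 of smooth muscle and pericytes 2 were lower, against 5.93% and 16.4% of all genes. In the fit with slide 4 of the smooth muscle markers were lower.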

How the data were processed

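The files held the scanner output of 12 1-colour Agilent arrays of mouse hypothalamus RNA, 3 pools in each of 4 groups. The intensity values deposited by the authors were Cy3 signals that the Feature Extraction software (10.5.1.1 in the file headers) had corrected for background and spatial trends, with no scaling between arrays. A table of values deposited beside them held the same processed signals (41174 of 41250 rows matched a probe) and served as an alternative. According to the study's methods, outlier spots and spots with a signal to noise ratio under 2 were removed, probes had to be present in over 50% of a group, and groups were compared by a t-test with thresholds on p and on the false discovery rate.

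Here the log2 signal of each of 43379 non-control spots was taken minus the 75th percentile of its array. Spots flagged as outliers, or with a processed signal under 2 times its error, were dropped, replicate spots were averaged per probe, and testing required values from 2 or more of the 3 pools in both groups. The contrast of late high minus low drinkers came from limma 3.58.1 in R 4.3.3, fitted to 4 group means over the 12 arrays, with 8 residual and 1.65 prior degrees of freedom, 2-sided, and Benjamini-Hochberg adjustment over all 32341 probes. The pools are separate RNA samples by their labels, and p-values measure the spread between pools. In the low and early groups that spread also holds differences between slides, and in the low group between scan days. The number of arrays limits the precision. In data simulated for this comparison, 156 of 200 probes moved by 1 on the log2 scale were recovered at an adjusted p under 0.05 among 32341, with 8 false calls. How far slide differences, the trend on GC content or an outlying array such as that of low pool 2 would change this recovery was not tested. Python 3.11.15, pandas 2.3.3 and matplotlib 3.10.9 were used for tables and plots.

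Of 41174 probes, 25263 were named by accession, 6233 by symbol and 1603 by synonym by means of a RefSeq gene table (GRCm38.p6, from which only symbols were taken), and 8075 kept the name in the files. Coordinates are mm9 as the files give them.

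Names were drawn from the 15 probes of lowest p past the adjusted threshold, of which those with signal above background are described; the 12 largest rises and 12 largest falls among named probes well above background on all 6 arrays, called and with no overlap; from each of 38 gene lists, read on the brightest probe, up to 4 called members by p, and the peptide genes whatever their p, of which not all are described and the rest are given as counts; the 13 genes the study singled out, with Actb and Gapdh; and up to 4 probes per direction well above background in 1 group alone. Outside this rule, and after their values were seen, U2af1, Mapk8ip1, Ppp1r37, H2-Ab1, Agap1, Sdc4, Cbfa2t3 and Notch1 were added. The members and lists were chosen with earlier results of these data known. Alternatives covered background correction, scaling, filters, slide and scan day, array weights, other tests, each array left out, other probes of a gene and, added after the data were seen, the trend on probe GC content and the fit without a block on probes measured on all 12 arrays.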

Additional observations from a re-analysis of the deposited data

How the results depend on the processing

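The count of 430 probes past the adjusted threshold depended on most choices. It was 2226 with normexp background correction, 1.1e+02 (to 2 significant digits) after quantile normalization, 149 with the signal to noise ratio taken from the background SD, 5 with slide as a random block, 2 with slide as a fixed term and 3496 with scan day as a term (both on 29517 probes, where the fit without a block gave 12), 10616 with array weights (which gave low pool 3 a weight of 42.5) and 1049 with limma's trended and robust prior. It was 0 with the value table, with no filter on dim spots, with the 6 arrays alone, with the methods' t-test, with the t-test for unequal variances and with the replicate block, where 11392, 11265, 5420, 4784, 3362 and 6620 probes passed the unadjusted threshold by the same tests. Leaving out 1 array gave 0 to 4450, with 0 without low pool 2 or late pool 1 (4861 and 5350 unadjusted), 4450 without low pool 1, 17 without low pool 3, 9 without late pool 2, 1009 without late pool 3, 57, 34 and 838 without early pools 1, 2 and 3, and 13 and 39 without water pools 2 and 3. The unadjusted count of 7622 was 3189 with slide as a fixed term, 14525 with array weights and 4784 and 3362 by those t-tests, and 4861 to 9739 with 1 array left out. Of these, rises (1879) numbered 3785 after quantile normalization, 7284 with no scaling, 5885 with median scaling, 773 with slide fixed, 4428 with array weights, 3072 with the GC trend removed, and 1333 to 2114 with 1 array left out. Falls (5743) numbered 9236 with normexp, 3315 after quantile normalization, 2399 with no scaling, 3033 with median scaling, 9711 with the value table, 9541 with no filter, 2416 with slide fixed, 10097 with array weights, 3162 and 2092 by the t-tests, and 3113 to 8122 with 1 array left out. Replicate numbers did not pair the pools (correlations of deviations −0.01, 0.09 and −0.03), and on the 29517 probes measured on all 12 arrays the replicate block gave 0 and 6620 calls against 12 and 6675 without it. Of 103 genes followed, 75 were called. With slide as a fixed term 71 of these could be fitted, of which 26 stayed past the threshold in the same direction, 42 lost the call and 3 turned, namely Taok2 (0.021), Gpbp1 (−0.022) and Galr3 (0.066). Of the 28 not called, 10 changed sign, of which Cck alone passed (−0.79). Drd2 turned with no scaling (0.012). Other probes of a gene went the other way for Ralgapa1 (0.16, 0.14), Cx3cl1 (0.14), Rab27a (0.0068), Taok2 (0.32), Jade3 (0.16), Gng12 (−0.026), Uncx (−0.87), Eif4a1 (−0.15), Ddx3y (−0.11), Bicdl1 (−0.45, −0.17), Gpbp1 (−0.044, −0.048, −0.52), Tcaf1 (−0.14), Ube2d-ps (−0.47, −0.43, −0.13), Gabra2 (0.19), Gabrb2 (−0.19, −0.12), Cry2 (−0.63), Slc1a3 (−0.040, −0.18), Fgfr3 (−0.75), Adrb1 (−0.59), Adcy1 (−0.78), Cacna1d (−0.54, −0.35) and Igf1 (−0.40). Of 418 list medians under the alternatives, 58 moved by over 1 SD. The cause was not tested. Signal near background limits the dim probes.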

Other observations

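On 181 probes the signal was well above background on all 3 late arrays and on no low array, and on 1 probe the reverse held. For these, the mean of the late pools was set against a bound for the low pools, per array the higher of the probe's own value and the lowest signal among probes well above background. Eif4e2, a cap-binding protein that represses translation, was at least 1.89-fold higher in the late pools, at −4.68, −4.65 and −3.32, while the low pools read −5.64, −5.58 and −5.07 (adjusted p = 0.102 by limma). For Wdcp, Arhgap42 and Hspa13 adjusted p-values were 0.342, 0.468 and 0.654, and for Hspa13 late pools 1 and 2 (−5.68 and −5.52) lay within the range of the low pools (−5.70 to −5.05). These probes were picked for being detected in the late pools, so the direction was fixed by the choice. The negative controls of low pools 2 and 3 were above those of the late pools, and their part in these values was not tested.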
